A study of Mus musculus with 18 samples.

Results

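The 10 genes described here mark the wall of the brain microvessel. Cldn5, Pecam1, Flt1, Kdr, Tek, Slco1a4 and Abcb1a are used as markers of brain endothelial cells (7 genes), and Pdgfrb, Rgs5 and Vtn as markers of pericytes (3 genes). The rule named the genes and used none of their values, and each matched 1 row of a table of 55421 genes by its Ensembl identifier. All 10 passed the low-count filter that left 20914 genes for testing. RNA-seq read counts were available for the striatum of 18 C57BL/6 mice aged 12 to 14 months, 1 library per mouse. The groups were 5 WT mice, 5 zQ175 mice, 3 CK2a'(+/-) mice and 5 zQ175:CK2a'(+/-) mice. zQ175 mice carry, on 1 Htt allele, a knock-in of a chimeric human and mouse exon 1 with an expanded CAG repeat, and they serve as a model of Huntington's disease. CK2a'(+/-) mice have lost 1 of the alleles of Csnk2a2, which encodes the kinase subunit CK2α’, in a line of mixed 129/SvEv-C57BL/6J origin that was bred onto C57BL/6J, and zQ175:CK2a'(+/-) mice carry both alterations. All mice were anaesthetised with Avertin and perfused through the heart before the striatum was frozen.

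Brain capillaries are lined by endothelial cells that are sealed to each other by tight junctions and that carry nutrient and efflux transporters, and together these features form the blood-brain barrier. Pericytes sit on the outer face of the capillary within the same basement membrane, are recruited by PDGF-B released from endothelium, and help to keep the barrier closed. In whole striatal tissue the vascular cells are a minority beside neurons and glia, so that fewer vascular cells and less RNA per vascular cell cannot be told apart.

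The upstream sequences of 4 of the genes are shown, chosen as contrasting pairs. Flt1 and Rgs5 had higher means in zQ175 and in CK2a'(+/-) mice than in WT, and Cldn5 and Vtn had lower means in both, though none of these differences passed the adjusted threshold. Abcb1a, with the largest positive difference of the 10 genes in both, and Tek also had higher means in both. Pdgfrb also had lower means in both, and these 3 genes are not shown. Each sequence is the 250 bases before the RefSeq start on GRCm38.p6, on the strand of the gene, in lower case. Capitals mark any of 4 motifs found on either strand: AGGAAG, which holds the core bound by ETS factors such as Erg, its variant CGGAAG, the GC box GGGCGG, and the TATA box TATAAA.
Cldn5 (chr16:18776597-18776846, plus strand): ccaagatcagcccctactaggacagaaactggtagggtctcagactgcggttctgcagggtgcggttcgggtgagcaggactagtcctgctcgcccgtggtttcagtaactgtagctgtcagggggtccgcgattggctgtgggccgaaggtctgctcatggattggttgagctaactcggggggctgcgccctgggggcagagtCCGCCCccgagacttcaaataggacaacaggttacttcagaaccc
Vtn (chr11:78498870-78499119, plus strand): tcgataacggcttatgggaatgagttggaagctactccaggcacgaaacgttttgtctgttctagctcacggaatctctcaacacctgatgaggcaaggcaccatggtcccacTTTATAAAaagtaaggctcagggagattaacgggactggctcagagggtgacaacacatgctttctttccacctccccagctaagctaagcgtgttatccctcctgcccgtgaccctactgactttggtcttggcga
Flt1 (chr5:147726012-147726261, minus strand): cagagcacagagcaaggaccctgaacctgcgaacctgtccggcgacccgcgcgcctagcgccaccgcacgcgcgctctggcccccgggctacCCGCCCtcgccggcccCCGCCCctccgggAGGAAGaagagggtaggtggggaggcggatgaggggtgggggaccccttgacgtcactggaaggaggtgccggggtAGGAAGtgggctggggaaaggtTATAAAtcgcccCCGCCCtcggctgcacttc
Rgs5 (chr1:169655251-169655500, plus strand): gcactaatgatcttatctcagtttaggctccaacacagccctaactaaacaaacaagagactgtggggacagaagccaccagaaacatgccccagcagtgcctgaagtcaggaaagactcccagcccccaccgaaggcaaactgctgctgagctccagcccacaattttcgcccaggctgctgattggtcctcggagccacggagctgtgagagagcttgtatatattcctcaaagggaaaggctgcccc
The Flt1 window held 2 copies of AGGAAG, 3 of GGGCGG on the opposite strand and 1 TATAAA that began 31 bases before the start. The Cldn5 window held 1 GGGCGG, on the opposite strand, and the Vtn window held TATAAA on both strands in overlapping copies that began 135 and 137 bases before its RefSeq start. The RefSeq start of Vtn lies 29 bases inside the counted gene model, so the end of its window is within that model. None of the 4 motifs occurred in the Rgs5 window. Of the windows not shown, those of Abcb1a and Slco1a4 held 2 and 1 copies of AGGAAG, and that of Kdr held 2 of GGGCGG. The RefSeq start used for Abcb1a lies far before its counted gene model. Of 32851 RefSeq promoter windows of the same length, 29.5% held AGGAAG on either strand, 13.6% CGGAAG, 32.7% GGGCGG and 12.4% TATAAA. These shares count at least 1 copy anywhere in the window, which was common among genes. The share with several copies, or with TATAAA at the position seen in Flt1, was not computed.

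The gene models of the count table lay on GRCm38, and all 10 are protein coding. Cldn5 (ENSMUSG00000041378, chr16:18776847-18778262) has 1416 exonic bases, and Pecam1 (ENSMUSG00000020717) lies at chr11:106654217-106750628. The receptor genes Flt1 (ENSMUSG00000029648, chr5:147561604-147726011), Kdr (ENSMUSG00000062960, chr5:75932827-75978458) and Tek (ENSMUSG00000006386, chr4:94739289-94874976) have 13504, 9030 and 4712 exonic bases. The transporter genes are Slco1a4 (ENSMUSG00000030237, chr6:141805440-141856199) and Abcb1a (ENSMUSG00000040584, chr5:8660077-8748575). The pericyte genes are Pdgfrb (ENSMUSG00000024620, chr18:61045150-61085061), Rgs5 (ENSMUSG00000026678, chr1:169655501-169695813) and Vtn (ENSMUSG00000017344, chr11:78499091-78502324). Only Abcb1a overlapped other gene models. One of these, Gm42686, lies on the opposite strand and shares 553 exonic bases with it, which is 10.1% of its exons, and collected 196 reads in all 18 libraries against 5592 for Abcb1a. Since the strand setting of the counting was not stated, reads in that stretch are uncertain. Abcb1a also has a close paralog, Abcb1b, whose level was between 1.92 and 6.40 CPM (read counts normalised for sequencing depth by TMM).

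Total counts were 13612381 to 22702547 per library. Csnk2a2, the gene deleted on 1 allele, was at 14.7 to 19.9 CPM in the 8 mice that carry the deletion and at 29.4 to 37.5 CPM in the other 10, as every label has it. Some libraries stood apart in genes of other tissues. Ttr, the defining gene of choroid plexus epithelium, was above 100 CPM in WT replicates 1 and 3, CK2a'(+/-) replicate 1 and zQ175:CK2a'(+/-) replicate 2, and at most 10.5 CPM in the other 14 libraries. The summed level of 4 haemoglobin genes, which mark red blood cells, was above 5 CPM in zQ175 replicate 4, CK2a'(+/-) replicates 1 and 2 and zQ175:CK2a'(+/-) replicate 2, and at most 3.59 CPM in the others. All 7 choroid plexus genes had lower means in zQ175 than in WT mice, with 0 passing and 3 at an unadjusted p under 0.05 (13.9% of all genes). All 4 blood genes tested had higher means in CK2a'(+/-) than in WT mice, again with 0 passing but with 4 at an unadjusted p under 0.05 (4.48% of all genes). The summed level of the 5 blood genes listed was 0.601 to 26.0 CPM in CK2a'(+/-) and 0.0444 to 1.68 CPM in WT mice. Xist, which is transcribed in females, was above 100 CPM in 4 of 5 WT, 2 of 5 zQ175, 1 of 3 CK2a'(+/-) and 4 of 5 zQ175:CK2a'(+/-) mice. The part of these differences in the results was not tested, and the values without the libraries concerned are given where they matter.

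Per unit of length, as RPKM (CPM divided by the exon length in kilobases), Vtn was the most abundant of the 10 genes and Kdr the least. The mean over 18 mice was 13.4 ± 1.98 RPKM (SD) for Vtn, an adhesive glycoprotein of plasma and matrix that pericytes make in brain. Rgs5, a regulator of G protein signalling that is a classic pericyte marker, followed at 8.52 ± 1.90 RPKM and lay below Vtn in 17 of 18 mice. Flt1 (VEGF receptor 1) came next at 4.23 ± 0.73 RPKM and was below Rgs5 in every mouse. The following genes were not ordered beyond their spread: Cldn5 at 3.53 ± 0.98, Pdgfrb at 3.38 ± 0.38, Slco1a4 at 3.33 ± 0.99 and Abcb1a at 3.12 ± 0.79 RPKM. In this stretch, from Flt1 downwards, each gene exceeded the next in only 10 to 13 of 18 mice. Pecam1 at 1.71 ± 0.38 and Tek at 1.58 ± 0.25 RPKM were likewise not separated, with Pecam1 higher in 10 of 18 mice, and Kdr (VEGF receptor 2) was below Tek in every mouse at 0.751 ± 0.22 RPKM. Vtn thus stood above 86.9% of the genes tested and Kdr above 24.4%. The read counts behind these levels were smallest for Cldn5, with 34 to 136 reads per library, and for Kdr, with 49 to 192, and largest for Flt1, with 718 to 1790.

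**Figure D1:**
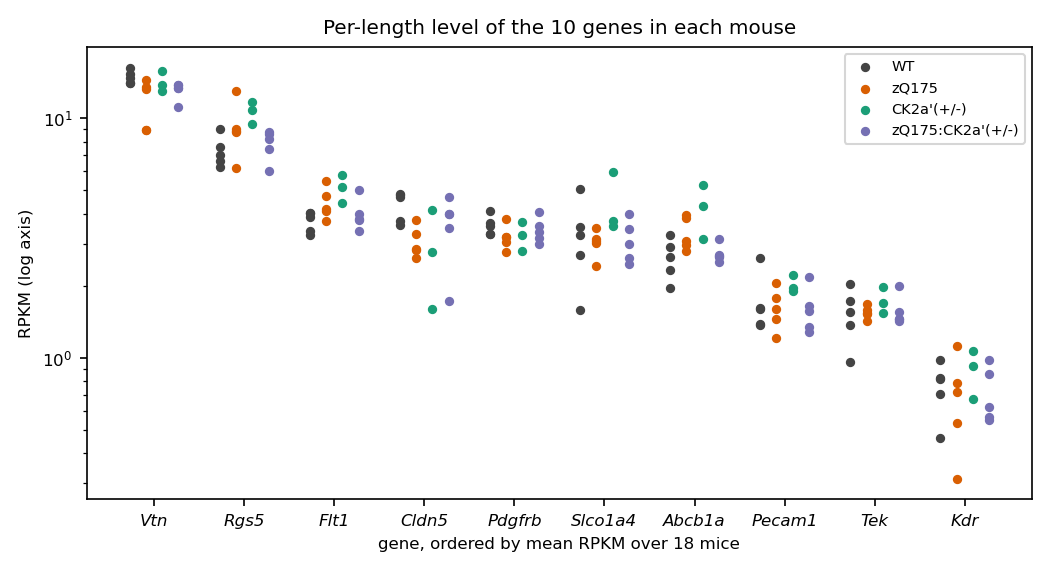
Level of each of the 10 genes in RPKM on a log axis, with genes ordered by mean level and 1 point per mouse, coloured by genotype. Vtn is highest (mean 13.4 RPKM) and Kdr lowest (0.751 RPKM), and the 4 genes from Cldn5 to Abcb1a overlap.

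For comparisons between genotypes, levels are given in CPM, each mouse in the order of its replicate number, and differences as log2 fold changes with standard errors from edgeR's quasi-likelihood test. Adjusted p-values are Benjamini-Hochberg values over all 20914 genes, with the study's own threshold of 0.1. None of the 10 genes passed it in any of 6 comparisons, so what follows gives the values and the limits that they set. The comparisons share control mice: WT mice enter those against WT, and CK2a'(+/-) mice enter both of those that include them.

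Abcb1a encodes the efflux pump P-glycoprotein of the luminal endothelial membrane and had the largest difference from WT in CK2a'(+/-) mice of the 10 genes. It was at 17.8, 14.4, 15.9, 10.7 and 12.7 CPM in WT mice and at 17.2, 28.9 and 23.6 CPM in CK2a'(+/-) mice. In zQ175 mice it was at 21.04, 16.3, 16.9, 21.7 and 15.3 CPM, and in zQ175:CK2a'(+/-) mice at 13.8, 14.8, 14.5, 17.2 and 14.6 CPM. CK2a'(+/-) replicates 2 and 3 were above every other mouse of the series, replicate 1 lay within the WT range, and all 5 zQ175:CK2a'(+/-) mice lay within it. The difference between CK2a'(+/-) and WT was 0.70 (SE 0.17) with an unadjusted p of 0.000537 and an adjusted p of 0.655, and it was 1.06 without the 4 libraries rich in Ttr. Those libraries include CK2a'(+/-) replicate 1, the lowest of its group, and WT replicates 1 and 3, the highest of theirs. Between zQ175:CK2a'(+/-) and CK2a'(+/-) it was -0.63 (SE 0.17) with an adjusted p of 0.143, and between zQ175 and WT 0.35 (SE 0.15) with an adjusted p of 0.308. Abcb1a was the only one of the 10 that crossed the threshold under any alternative processing: zQ175:CK2a'(+/-) against CK2a'(+/-) gave an adjusted p of 0.0588 with DESeq2. The same comparison gave 0.0713 in edgeR without the low-count filter, 0.0756 in a fit of these groups alone and 0.0946 without CK2a'(+/-) replicate 1. Over all alternatives its adjusted p in that comparison went from 0.0588 to 0.552.

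Slco1a4, which encodes an organic anion transporter enriched at the mouse barrier, varied widely within groups. It was at 32.5, 17.3, 22.6, 20.9 and 10.2 CPM in WT mice and at 22.3, 15.5, 19.4, 19.8 and 20.1 CPM in zQ175 mice. It was at 22.8, 38.3 and 23.9 CPM in CK2a'(+/-) mice and at 19.1, 16.8, 15.9, 25.5 and 22.1 CPM in zQ175:CK2a'(+/-) mice. The highest mouse of the series was CK2a'(+/-) replicate 2, which was also highest for Abcb1a, and WT replicate 5 was the lowest. Each of the other groups overlapped with WT, and the CK2a'(+/-) mice lay just above all 5 zQ175 mice. The difference between zQ175 and WT was -0.09, with a 95% confidence interval from -0.55 to 0.37. CK2a'(+/-) differed from WT by 0.46 (SE 0.25, adjusted p = 0.999), and by 0.95 (adjusted p = 0.812) without the libraries rich in Ttr. Here too those libraries include WT replicates 1 and 3, the highest of that group, and CK2a'(+/-) replicate 1, the lowest of its group. Without CK2a'(+/-) replicate 2 the difference from WT was 0.18, and without WT replicate 5 it was 0.28.

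Cldn5 encodes claudin-5, the main sealing protein of endothelial tight junctions, and was the member with the lowest counts. It was at 6.78, 6.87, 6.67, 5.29 and 5.10 CPM in WT mice and at 3.70, 4.00, 5.35, 4.68 and 4.03 CPM in zQ175 mice. It was at 5.86, 3.94 and 2.27 CPM in CK2a'(+/-) mice and at 4.95, 5.67, 2.45, 5.63 and 6.67 CPM in zQ175:CK2a'(+/-) mice. Of the zQ175 mice, 1 reached into the WT range and 4 lay below it, while the zQ175:CK2a'(+/-) mice reached from below the zQ175 range into that of WT. The mean was 6.14 ± 0.87 CPM (SD, n = 5) in WT and 4.35 ± 0.66 CPM (SD, n = 5) in zQ175 mice, a difference of -0.50 (SE 0.25, adjusted p = 0.377). The confidence interval of that difference, -1.01 to 0.02, just includes 0. CK2a'(+/-) differed from WT by -0.60 (SE 0.29, adjusted p = 0.999), a value that was -0.97 without CK2a'(+/-) replicate 1 and -0.32 without replicate 3, and -1.44 without the haemoglobin-rich libraries, which leaves replicate 3 alone in its group. Pecam1, an adhesion protein of endothelial cell contacts that platelets and leukocytes also carry, showed no such direction. It was at 8.57 to 16.2 CPM in WT, 7.53 to 12.8 in zQ175, 11.9 to 13.8 in CK2a'(+/-) and 7.97 to 13.5 CPM in zQ175:CK2a'(+/-) mice, and its difference between zQ175 and WT was -0.08 (confidence interval -0.47 to 0.31).

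Of the receptors, Flt1 had the most reads and the narrowest intervals. Flt1 binds VEGF-A tightly and serves largely as a trap for it, whereas Kdr carries the main VEGF signal and Tek (TIE2) binds the angiopoietins. Flt1 was at 44.1, 52.6, 54.5, 54.5 and 45.7 CPM in WT mice and at 63.9, 56.7, 73.9, 50.5 and 55.5 CPM in zQ175 mice. It was at 70.0, 78.3 and 59.7 CPM in CK2a'(+/-) mice and at 51.0, 51.5, 45.6, 53.7 and 67.6 CPM in zQ175:CK2a'(+/-) mice. All 3 CK2a'(+/-) mice lay above all 5 WT mice, 4 of 5 zQ175 mice lay above the highest WT mouse, and the zQ175:CK2a'(+/-) mice spanned the WT range except for replicate 5. The difference from WT was 0.47 (SE 0.13, adjusted p = 0.787) in CK2a'(+/-), 0.26 (SE 0.11, adjusted p = 0.318) in zQ175 and 0.10 (SE 0.11, adjusted p = 0.862) in zQ175:CK2a'(+/-) mice. Without zQ175 replicate 3 the value in zQ175 mice was 0.16. In zQ175:CK2a'(+/-) mice the value went from 0.006 to 0.16 with 1 mouse left out. Without the 4 libraries rich in haemoglobin RNA the value in CK2a'(+/-) mice was 0.24 (adjusted p = 0.867), with 1 CK2a'(+/-) mouse left. Kdr and Tek differed from WT in zQ175 mice by -0.13 (confidence interval -0.69 to 0.43) and 0.03 (-0.33 to 0.38). Kdr ranged from 2.84 to 10.1 CPM among the 5 zQ175 mice alone, while Tek was at 6.72 to 7.91 CPM in them, the tightest of its 4 groups.

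The pericyte genes did not behave as 1 unit. Rgs5 was at 32.1, 34.5, 40.8, 30.2 and 28.5 CPM in WT mice and at 39.7, 28.3, 59.1, 40.4 and 40.8 CPM in zQ175 mice. It was at 53.2, 43.2 and 49.2 CPM in CK2a'(+/-) mice and at 27.5, 38.9, 37.4, 33.8 and 39.8 CPM in zQ175:CK2a'(+/-) mice. The CK2a'(+/-) mice were above every WT and every zQ175:CK2a'(+/-) mouse, and the zQ175 mice overlapped all groups, with replicate 3 the highest of the series. The difference between CK2a'(+/-) and WT was 0.55 (SE 0.17) with an unadjusted p of 0.00379 and an adjusted p of 0.999, and that between zQ175 and WT was 0.33 (SE 0.15, adjusted p = 0.331), or 0.16 without zQ175 replicate 3. Vtn had the other direction. It was at 33.0, 28.4, 28.6, 29.9 and 31.0 CPM in WT mice and at 27.4, 18.2, 29.3, 27.0 and 18.1 CPM in zQ175 mice. It was at 28.0, 31.9 and 26.4 CPM in CK2a'(+/-) mice and at 27.2, 28.1, 22.7, 27.9 and 27.2 CPM in zQ175:CK2a'(+/-) mice. zQ175 replicates 2 and 5 stood well below the rest of the series, and every zQ175:CK2a'(+/-) mouse was below every WT mouse by a small margin. The difference between zQ175 and WT was -0.33 (SE 0.13, unadjusted p = 0.0151, adjusted p = 0.237), the smallest adjusted p of the 10 genes in that comparison, and between zQ175:CK2a'(+/-) and WT it was -0.18 (SE 0.13, adjusted p = 0.710). Pdgfrb, the PDGF-B receptor by which pericytes are recruited, was the steadiest of the 10 genes, with a coefficient of variation of 11.4% over 18 mice. It was at 17.97 to 22.6 CPM in WT and 15.2 to 20.8 CPM in zQ175 mice, and its difference of -0.16 had a confidence interval from -0.40 to 0.08.

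**Figure D2:**
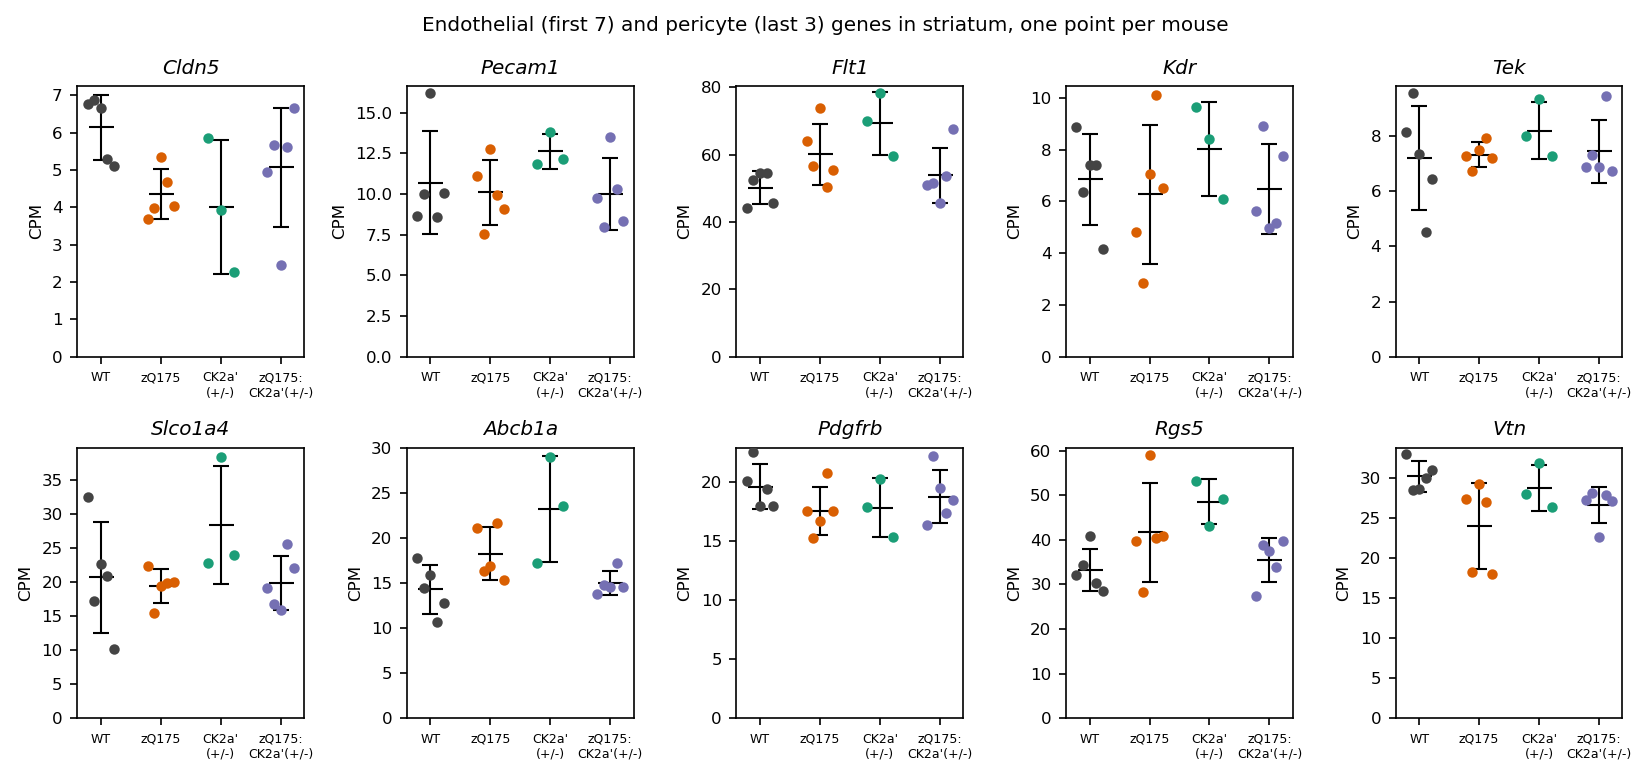
Level in CPM of each of the 10 genes by genotype, with 1 point per mouse, a short line for the group mean and bars for ± 1 SD; each axis starts at 0. The 3 CK2a'(+/-) mice lie above all 5 WT mice for Flt1 and Rgs5, and the zQ175 mice reach lowest for Vtn (18.1 CPM).

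The first comparison was that of zQ175 with WT. In edgeR 0 of the 10 genes passed the adjusted threshold, against 1.1% of all genes tested. At an unadjusted p under 0.05 in edgeR, 4 passed (Abcb1a, Flt1 and Rgs5 with higher and Vtn with lower means in zQ175), against 13.9% of all genes, 6.79% higher and 7.1% lower, and 4 did so in DESeq2. That count rested on single mice: it was 2 when any one of WT replicates 1, 2, 4 and 5 or zQ175 replicates 1, 4 and 5 was left out. In 0 of the 10 did the groups fail to overlap, against 2.44% of all genes. The median difference of the 10 genes was -0.09, beside 0.00 for all genes tested, with values from -0.50 for Cldn5 to 0.35 for Abcb1a. With 1 mouse left out that median went from -0.14 to 0.02. Without the 4 libraries rich in Ttr the median was 0.09 and 2 of the 10 were under 0.05, Abcb1a at 0.53 and Rgs5 at 0.42. With Xist added as a covariate for sex, the difference was 0.34 for Abcb1a, 0.22 for Flt1, -0.36 for Vtn and -0.55 for Cldn5.

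Between CK2a'(+/-) and WT mice, 0 of the 10 passed (0.0143% of all genes did), and 3 had an unadjusted p under 0.05, all with higher means in CK2a'(+/-), against 4.48% of all genes and 1.99% in that direction. These were Abcb1a, Flt1 and Rgs5. DESeq2 gave 4 genes under 0.05, counted in either direction. For 2 of the 10, Flt1 and Rgs5, the CK2a'(+/-) mice did not overlap with WT and were higher, against 3.2% of all genes without overlap and 1.43% in that direction. The median of the 10 was 0.24, beside -0.01 for all genes, and 7 were positive and 3 (Cldn5, Pdgfrb and Vtn) negative. This group held only 3 mice, and haemoglobin RNA was at 25.0, 12.2 and 0.133 CPM in them, against at most 1.40 CPM in WT. Xist divided these mice in the same way, since it was above 100 CPM in replicate 3 only, and in 4 of 5 WT mice. With Xist as a covariate the median was 0.22, and 4 of the 10 were under 0.05. In the fit without the haemoglobin-rich libraries, which leaves replicate 3 of this group, the median was 0.09, Abcb1a was at 0.71 and Rgs5 at 0.56, and 3 of the 10 were under 0.05. Without the libraries rich in Ttr 5 were, as they were without CK2a'(+/-) replicate 1. The lone mouse is there assumed to vary like the other groups.

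The zQ175:CK2a'(+/-) mice were compared with each of the other groups. Compared with WT, 0 of the 10 passed (0.0143% of all genes) and 0 had an unadjusted p under 0.05 in edgeR or DESeq2, against 9.13% of all genes. For 1 of them, Vtn, the groups did not overlap, against 1.84% of all genes and 0.899% in that direction. The median was -0.06, and it went from -0.11 to 0.03 with 1 mouse left out. The value farthest from 0 was -0.27, for Cldn5, with a confidence interval from -0.78 to 0.24. It was -0.098 without zQ175:CK2a'(+/-) replicate 3. Compared with zQ175 mice, 0 passed (0.0143% of all genes), 0 had an unadjusted p under 0.05, against 6.27% of all genes, 0 had groups that did not overlap, against 1.14%, and the median was 0.03. That median went from -0.07 to 0.07 with 1 mouse left out. The values went from -0.28 (confidence interval -0.60 to 0.03) for Abcb1a to 0.22 (-0.29 to 0.74) for Cldn5, which was 0.11 without zQ175:CK2a'(+/-) replicate 5 and 0.40 without replicate 3. With 1 mouse left out, 1 gene had an unadjusted p under 0.05 without zQ175 replicate 2 (Rgs5), zQ175 replicate 5 (Abcb1a) or zQ175:CK2a'(+/-) replicate 5 (Flt1). Compared with CK2a'(+/-) mice, 0 passed in edgeR (0.593% of all genes), 3 were under 0.05 (Abcb1a, Flt1 and Rgs5, all with lower means), against 9.19% of all genes and 4.86% in that direction, and the median was -0.33. Only Rgs5 had groups that did not overlap, against 8.34% of all genes and 4.48% in that direction. DESeq2 called 1, Abcb1a, and gave 4 with an unadjusted p under 0.05. With Xist as a covariate in edgeR the median was -0.22, and 3 were under 0.05. The CK2a'(+/-) haemoglobin levels stand beside this comparison too, and without the haemoglobin-rich libraries the median was -0.08, and 2 of the 10 were under 0.05, as they were without the libraries rich in Ttr and without CK2a'(+/-) replicate 2.

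**Figure D3:**
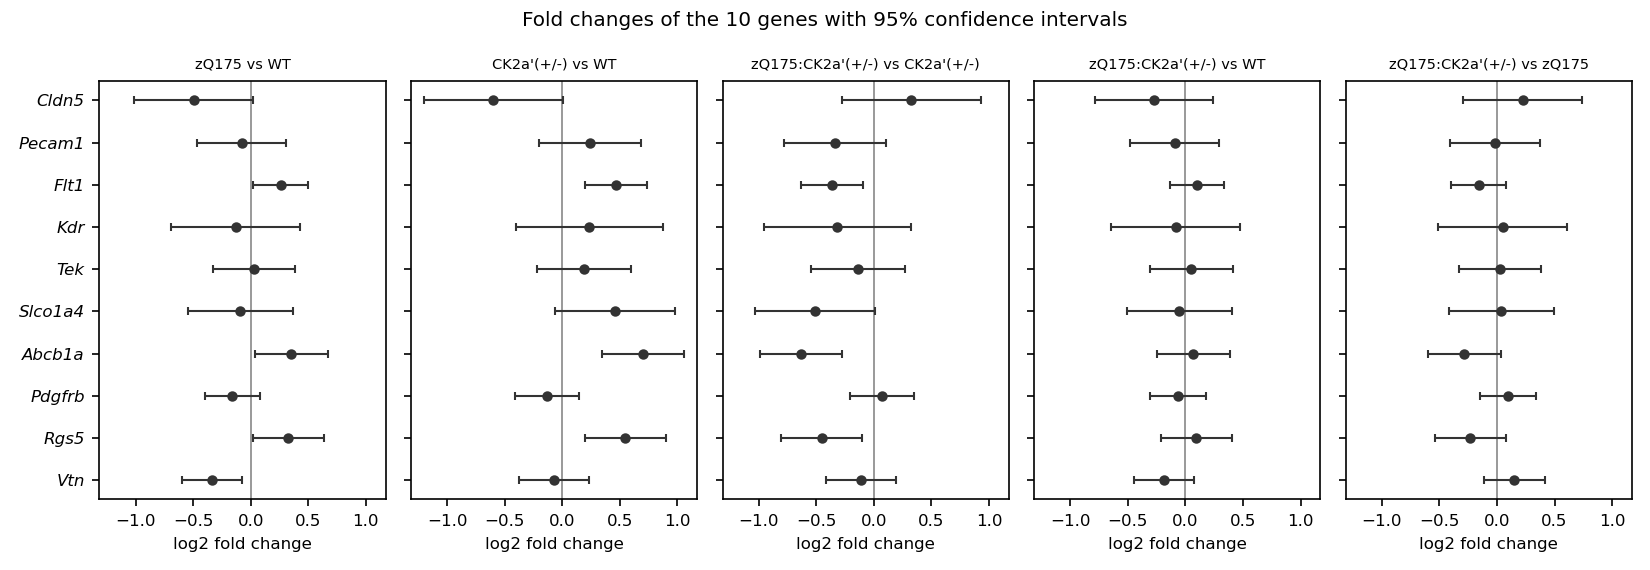
Log2 fold change of each of the 10 genes with its 95% confidence interval in 5 comparisons between genotypes; points right of the line at 0 have the higher level in the genotype named first. Abcb1a, Flt1 and Rgs5 lie right of 0 in CK2a'(+/-) against WT (0.70, 0.47 and 0.55) and left of it in zQ175:CK2a'(+/-) against CK2a'(+/-).

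Whether the zQ175 allele acted differently with and without the second Csnk2a2 allele was tested as an interaction. None of the 10 passed (0.00478% of all genes did), and 4 had an unadjusted p under 0.05, against 5.39% of all genes. The interaction rests in part on the 3 CK2a'(+/-) mice, of which replicates 1 and 2 were rich in haemoglobin and had Xist below 100 CPM. With Xist as a covariate the median of the 10 was -0.12, and 4 had an unadjusted p under 0.05. With 1 mouse left out the median of the 10 went from -0.36 to -0.15, and its value without the haemoglobin-rich libraries is given at the end. The interaction was -0.99 (SE 0.23, unadjusted p = 0.000329, adjusted p = 0.635) for Abcb1a, -0.78 (SE 0.22, adjusted p = 0.811) for Rgs5, -0.62 (SE 0.17, adjusted p = 0.811) for Flt1 and 0.82 (SE 0.38, adjusted p = 0.916) for Cldn5. For the first 3, either alteration alone had the higher mean and both together a mean near WT. In DESeq2 the interaction of Abcb1a had an adjusted p of 0.0804, and over all alternatives it went from 0.0804 to 1.00.

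As a summary of each list, the standardised levels (z-scores over 18 mice) of the 7 endothelial and of the 3 pericyte genes were averaged in each mouse. Because the genes varied together only loosely, these means are not measures of the vessel wall. The endothelial mean was highest in CK2a'(+/-) replicate 2, at 1.34, and lowest in WT replicate 5, at -0.991, and the groups overlapped, since the WT mice alone went from -0.991 to 0.493. The pericyte mean was lowest in zQ175 replicate 2, at -1.80, and highest in CK2a'(+/-) replicate 2, at 0.835. CK2a'(+/-) replicates 1 and 2 had endothelial means of 0.677 and 1.34 and were also the pair with haemoglobin above 5 CPM in that group. Replicate 3, with 0.133 CPM of haemoglobin, had an endothelial mean of 0.0691. It was also the only mouse of that group with Xist above 100 CPM, so haemoglobin and sex divided the group in the same way. The part of either was not tested. The other 2 libraries with haemoglobin above 5 CPM did not stand apart, with endothelial means of 0.262 in zQ175 replicate 4 and -0.221 in zQ175:CK2a'(+/-) replicate 2.

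**Figure D4:**
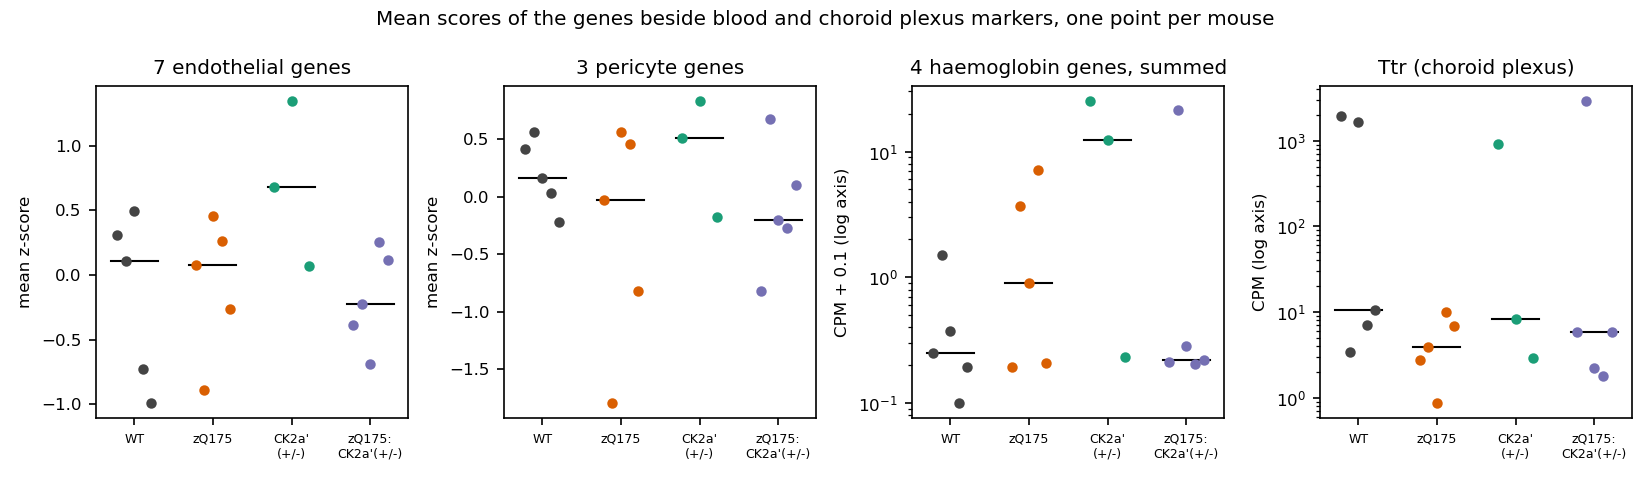
Mean z-score of the 7 endothelial genes and of the 3 pericyte genes, summed level of 4 haemoglobin genes (CPM + 0.1, log axis) and level of Ttr (CPM, log axis), with 1 point per mouse and a line for the group median. CK2a'(+/-) replicate 2 has the highest endothelial mean (1.34), and haemoglobin is above 5 CPM in 4 libraries and Ttr above 100 CPM in 4.

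The pathways to which the 10 genes belong were examined through lists of other genes. Of 18 further genes of endothelial identity, 0 passed in any comparison between genotypes. Between zQ175 and WT, 10 had higher and 8 lower means, with a median of 0.03, and between CK2a'(+/-) and WT 15 had higher and 3 lower means, with a median of 0.33. The summed level of these 18 genes was 143 to 180 CPM in WT and 183 to 209 CPM in CK2a'(+/-) mice, without overlap, and 151 to 199 CPM in zQ175 and 148 to 186 CPM in zQ175:CK2a'(+/-) mice. In the same comparison with WT, all 7 genes of striatal projection neurons and all 4 blood genes had higher means (medians of 0.28 and 4.08) and all 6 microglial genes lower means, with 0 passing in each list. The part of these in the endothelial values was not tested. Among the 18, Erg, an ETS transcription factor of endothelium, was at 2.24, 1.79, 0.953, 0.755 and 2.36 CPM in WT and at 3.74, 4.11 and 3.00 CPM in CK2a'(+/-) mice, a difference of 1.15 (SE 0.37, adjusted p = 0.999). Its mean was also above WT in zQ175 mice, by 0.69 (SE 0.33, adjusted p = 0.354), and in zQ175:CK2a'(+/-) mice, by 0.83 (SE 0.33, adjusted p = 0.450). Ptprb (VE-PTP), the phosphatase that restrains TIE2, was at 31.2, 44.2, 42.9, 38.6 and 37.4 CPM in WT and at 55.7, 55.3 and 48.7 CPM in CK2a'(+/-) mice, a difference of 0.46 (SE 0.11, adjusted p = 0.655), and differed from WT by 0.27 (adjusted p = 0.212) in zQ175 and 0.25 (adjusted p = 0.433) in zQ175:CK2a'(+/-) mice. For both genes all 3 CK2a'(+/-) mice were above all 5 WT mice, and they were the only 2 of the 18 without overlap, against 3.2% of all genes. Itm2a, a membrane protein of endothelium, was at 11.7 ± 1.4 CPM in WT (SD, n = 5) and 12.8 ± 1.8 CPM in CK2a'(+/-) mice (SD, n = 3), a difference of 0.13 (SE 0.18, adjusted p = 0.999).

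Apart from pericytes and smooth muscle, the other lists of barrier and vessel wall genes held no gene that passed in any comparison. Between CK2a'(+/-) and WT their medians were 0.02 for junctions, 0.08 for transporters and -0.01 for VEGF ligands and receptors. Arterial endothelium was at 0.03, the Wnt pathway at 0.07, venous endothelium at 0.12 and basement membrane at 0.15. The angiopoietin and TIE pathway was at 0.28, PDGF ligands and receptors at -0.30 and perivascular fibroblasts at -0.20. Pericyte identity genes had a median of 0.01 there and arterial smooth muscle genes 0.29, beside 0.33 for the endothelial identity genes. Of 11 further junction genes, 2 had higher and 9 lower means in zQ175 than in WT mice, with a median of -0.16. One of them, Tjp1, which encodes the scaffold ZO-1, was at 163 ± 17 CPM in WT and 163 ± 16 CPM in zQ175 mice (SD, n = 5 each). Of 12 further transporters, 8 had higher and 4 lower means, with a median of 0.05. Slc2a1, the barrier glucose transporter, was at 62.1 ± 8.5 CPM in WT and 59.5 ± 20 CPM in zQ175 mice. The 8 other VEGF ligands and receptors, the 5 further genes of the angiopoietin and TIE pathway, the 5 other PDGF ligands and receptors and the 9 genes of the Wnt pathway that builds the barrier had medians of 0.05, 0.16, -0.12 and -0.01 in the same comparison. The 8 basement membrane genes had a median of 0.02, the 6 arterial endothelial genes -0.37 and the 5 venous genes 0.03. Of 7 genes of perivascular fibroblasts, which lie around larger vessels, 6 were tested and 5 had lower means in zQ175 than in WT mice, with a median of -0.24. In zQ175:CK2a'(+/-) mice 5 of the 6 had lower means than in WT, with a median of -0.76 and 2 at an unadjusted p under 0.05, against 9.13% of all genes. Against CK2a'(+/-) mice the median was -0.53 and 3 of the 6 had no overlap, against 8.34% of all genes.

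Among 14 further genes of pericyte identity and 8 genes of arterial smooth muscle, 2 passed between zQ175 and WT, against 1.1% of all genes, and 1 of these passed also between zQ175:CK2a'(+/-) and CK2a'(+/-), against 0.593%. Cox4i2, a subunit of cytochrome c oxidase that pericytes express, fell in zQ175 against WT mice by 1.67 on the log2 scale (SE 0.41, adjusted p = 0.0772). It was at 1.69, 0.559, 2.04, 3.11 and 2.50 CPM in WT and at 0.703, 0.406, 0.369, 0.923 and 0.699 CPM in zQ175 mice, so that only WT replicate 2 reached into the zQ175 range. In CK2a'(+/-) mice it was at 1.57, 0.831 and 2.00 CPM, and in zQ175:CK2a'(+/-) mice at 1.46, 1.22, 1.71, 1.38 and 1.62 CPM. These are few reads, and the call held in 15 of 26 alternatives. It was lost when any one of WT replicates 1, 3, 4 and 5 or zQ175 replicates 1, 2, 3 and 5 was left out, at -1.45 to -1.74, with Xist as a covariate, at -1.62 (adjusted p = 0.104), and with only these 2 groups in the fit, at -1.67 (adjusted p = 0.190). Without the libraries rich in Ttr the difference was as large, at -1.73, with an adjusted p of 0.496. The list as a whole had 7 higher and 7 lower means and a median of -0.01. Tpm2, a tropomyosin of smooth muscle, was at 10.6, 14.4, 16.5, 10.5 and 8.16 CPM in WT and at 8.58, 7.995, 5.35, 7.65 and 6.51 CPM in zQ175 mice. It was at 14.8, 11.6 and 15.2 CPM in CK2a'(+/-) and at 5.23, 6.32, 7.72, 7.48 and 4.63 CPM in zQ175:CK2a'(+/-) mice, and the last of these groups lay wholly below the one before it, as it did for 4.48% of all genes. Tpm2 fell by 1.14 on the log2 scale in zQ175:CK2a'(+/-) against CK2a'(+/-) mice (SE 0.22, adjusted p = 0.0354), a call that held in 20 of 26 alternatives. It was lost without any one of the 3 CK2a'(+/-) mice, at -1.09, -1.26 and -1.07 with adjusted p-values of 0.118, 0.1004 and 0.227 without replicates 1, 2 and 3, and it was lost with the replicate number as a block, at -1.06 (adjusted p = 0.141). Without the libraries rich in Ttr the difference was -1.09 (adjusted p = 0.177) and without those rich in haemoglobin -1.26 (adjusted p = 0.300), so its size stayed near that of all libraries. In zQ175 against WT it fell by 0.73 (SE 0.19, adjusted p = 0.0992), which lay at the threshold and held in 5 of 26. The other smooth muscle genes did not pass, and the median of the 8 was -0.24 in zQ175 against WT and -0.65 in zQ175:CK2a'(+/-) against CK2a'(+/-) mice. The summed level of the 8 was 29.2 to 44.3 CPM in WT, 26.8 to 43.2 in zQ175, 42.7 to 44.8 in CK2a'(+/-) and 26.1 to 30.1 CPM in zQ175:CK2a'(+/-) mice.

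Markers of the other cells in the tissue were measured beside these values, and the counts that follow stand against 1.1% of all genes that passed between zQ175 and WT mice. Of 7 striatal projection neuron genes, 3 passed and all 7 had lower means in zQ175 than in WT mice, with a median of -0.85, and their summed level was 1436 to 3177 CPM in WT and 682 to 1406 CPM in zQ175 mice, without overlap. Of 5 oligodendrocyte genes, 3 passed and all 5 had lower means, with a median of -0.58. Of 6 microglial genes 1 passed, C1qa, with a lower mean in zQ175 mice, and of 7 astrocyte genes none did. Of 5 genes of cortical excitatory neurons, 1 passed, Tbr1, 4 had higher means in zQ175 than in WT mice and 4 had an unadjusted p under 0.05, with a median of 1.27, and in zQ175:CK2a'(+/-) against zQ175 mice their median was -1.45. In zQ175:CK2a'(+/-) against CK2a'(+/-) mice, the comparison in which Tpm2 passed, all 7 projection neuron genes again had lower means, with a median of -0.78. Of these 2 passed, Adora2a and Penk, against 0.593% of all genes, and 6 had no overlap between the groups, against 4.48% of all genes in that direction. The summed level of the 7 was 1144 to 1675 CPM against 2181 to 3433 CPM. Of the 5 oligodendrocyte genes 1 passed there, Mobp, with a lower mean. The part of these shifts in the vascular values, which are shares of the same libraries, was not tested.

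Across mice the 10 genes varied together only loosely. Over 18 mice the 21 pairs of endothelial genes had a median Pearson r of 0.25, from -0.38 between Cldn5 and Abcb1a to 0.62 between Slco1a4 and Abcb1a, and 18 of the 21 were positive. The 3 pericyte pairs had a median of 0.08, or 0.29 after the mean of each genotype had been removed, and the 21 pairs of an endothelial with a pericyte gene had a median of 0.30. The highest r of all 45 pairs was that of Flt1 and Rgs5, at 0.67, an endothelial with a pericyte gene, and it was 0.41 after that step. The lowest, that of Cldn5 and Abcb1a, was -0.01 after it, and Cldn5 and Flt1 went from -0.03 to 0.54. The median of the endothelial pairs was 0.23 after it. Tek and Abcb1a kept their value, at 0.61 before and 0.64 after, and so did Kdr and Pdgfrb, at 0.56 and 0.63. The points of each pair come from the same libraries and share their depth, so these values are given as a description.

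**Figure D5:**
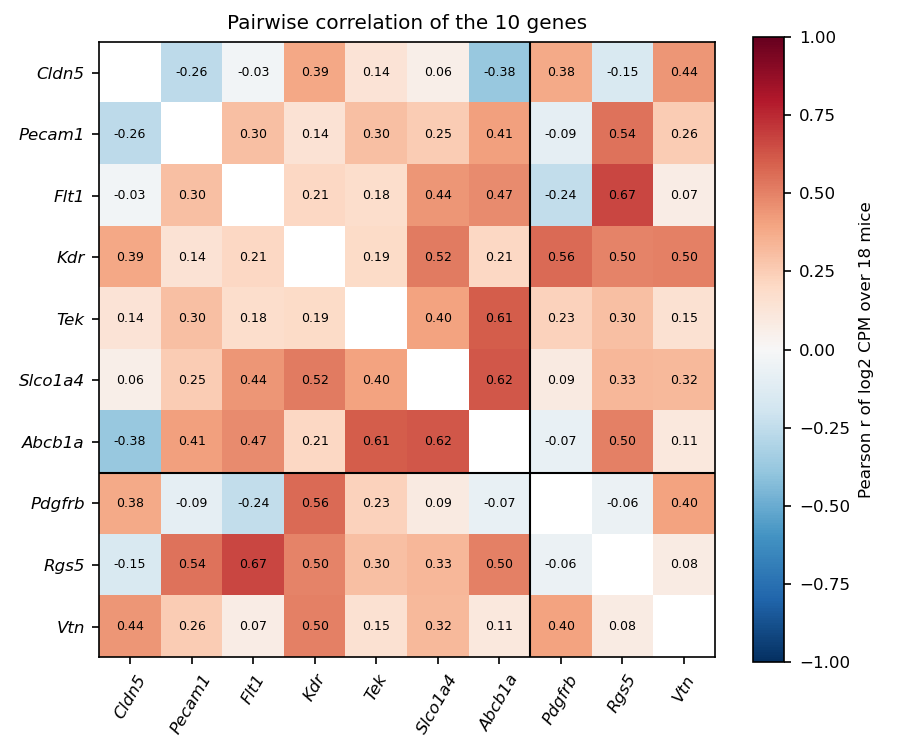
Pearson r of log2 CPM over 18 mice for each pair of the 10 genes; lines separate the 7 endothelial from the 3 pericyte genes. The highest value is that of Flt1 and Rgs5 (0.67) and the lowest that of Cldn5 and Abcb1a (-0.38).

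The libraries also differed in base composition, measured as the median log2 deviation of genes with over 57.5% GC minus that of genes with under 40.1% GC. That value was -0.073 to 0.31 in WT and -0.27 to -0.027 in zQ175 mice. It moved with Vtn over 18 mice (r = 0.63; Vtn is 55.3% GC in its longest transcript) and with Pecam1 (r = 0.52; 50.2% GC), whereas for the other 8 genes r lay between -0.15 and 0.27. Cldn5, the most GC-rich at 60.5%, had an r of 0.21, and Slco1a4 and Rgs5, the most GC-poor at 40.3% and 41.1%, had 0.14 and 0.04. The part of base composition in the Vtn values was not tested.

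Of 16639 other genes with a mean of at least 1 CPM, those whose pattern was most like the endothelial mean over 18 mice were AW011738 (r = 0.88), Arhgap27 (0.80), Shank3 (0.78), Cxcl12 (0.77), Jag1 (0.76), Adgrb1 (0.76), Nphs1 (0.75), Htt (0.75), Gm26736 (0.74) and Nhsl2 (0.74). Cxcl12, a chemokine, and Jag1, a Notch ligand, are made by endothelium among other cells, and Shank3 and Adgrb1 are known from synapses. Without the 2 mice farthest from the median of the endothelial mean, r was 0.78 for AW011738 and 0.53 for Jag1. Most like the pericyte mean were Fam129b (r = 0.84), Rcsd1 (0.78), Gpr137b (0.77), 6430571L13Rik (0.77), Prr5l (0.75), Fam198a (0.75), Usb1 (0.75), AW011738 (0.75), Gm17491 (0.75) and Bckdha (0.74). Without the 2 farthest mice, r was 0.70 for Fam129b and 0.38 for Prr5l. None of these genes was in the lists of vascular genes.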

How the data were processed

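The authors deposited raw read counts per gene for the 18 libraries, with the summed exon length of each gene as another column. Per the labels and the study's methods, stranded total RNA libraries were sequenced as paired 50-base reads, trimmed with Trimmomatic and aligned with HISAT2 2.1.0 to GRCm38. Unmapped reads, duplicated mappings and alignments of low mapping quality were removed, and the rest counted with Subread 1.6.2. The strand setting of the counting is not given in the sources used here. Library totals were 13612381 to 22702547. The 10 genes and all gene lists were chosen with earlier results of these data known. Counts were tested with edgeR 4.0.16 in R 4.3.3 (quasi-likelihood, TMM, filterByExpr, 20914 genes, all 18 libraries, genotype only), with Benjamini-Hochberg adjustment over all genes and a threshold of 0.1. CPM used TMM library sizes, RPKM the deposited lengths, and log2 CPM a prior count of 2. Correlations are Pearson's r of log2 CPM. The fits were tested on simulated data. Alternatives were DESeq2 1.42.0, its size factors, no filter, only the groups compared, a replicate block, Xist as a covariate, a threshold of 0.05 and each mouse left out; leaving out libraries with over 100 CPM of Ttr or over 5 CPM of haemoglobin was added after seeing the data. Named genes were the 10, in each list those that passed, the most abundant and the one with the largest difference between zQ175 and WT, of which a part is printed, and the 10 most like each mean. Nothing in the labels ties mice to litters or batches, or gives the sex of a library.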

Additional observations from a re-analysis of the deposited data

Results flagged for a closer look

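In 3 of 30 groups of 5 mice, 1 mouse lay farther from its group than Dixon's 95% critical value allows, and chance gives about 1 in 20 groups. Pecam1 was at 16.2 CPM in WT replicate 3, against 10.1 CPM in the next WT mouse, and without that mouse the difference between zQ175 and WT went from -0.08 to 0.12. Tek was at 9.45 CPM in zQ175:CK2a'(+/-) replicate 4, against 7.32 CPM in the next mouse of that group. Vtn was at 22.7 CPM in zQ175:CK2a'(+/-) replicate 3, the lowest of its group, against 27.2 CPM in the next.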

How the results depend on the processing

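Of the 10 genes, Abcb1a changed its call, and the other 9 were not called under any alternative. Members called became 1 (Abcb1a) of 10 in zQ175:CK2a'(+/-) against CK2a'(+/-) with DESeq2, without the low-count filter and with only the 2 groups, and 1 in the interaction with DESeq2. With 1 mouse left out, members called went from 0 to 1 in zQ175:CK2a'(+/-) against CK2a'(+/-), the 1 being Abcb1a without CK2a'(+/-) replicate 1, and were 0 in the interaction.

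The count of all genes called moved more. In zQ175 against WT it was 230, and 855 with DESeq2, 451 without the filter, 0 with only the 2 groups (2337 at an unadjusted p under 0.05), 51 at a threshold of 0.05, 1 without the choroid plexus libraries and 0 to 587 with 1 mouse left out. In zQ175:CK2a'(+/-) against WT it was 3, and 123, 85, 1 and 1 in the first 4 of these, 1 without the haemoglobin libraries and 1 to 34 with 1 mouse left out. In zQ175:CK2a'(+/-) against zQ175 it was 3, and 39 with DESeq2, 51 without the filter, 1 without the haemoglobin libraries and 1 to 6 with 1 mouse left out. In CK2a'(+/-) against WT it was 3, and 11, 19, 0 with only the 2 groups (730 at an unadjusted p under 0.05), 0 without the haemoglobin libraries and 1 to 9 with 1 mouse left out. In zQ175:CK2a'(+/-) against CK2a'(+/-) it was 124, and 322, 297 and 461 in the first 3, 75 with Xist, 27 at 0.05, 14 and 3 without the choroid plexus and haemoglobin libraries and 6 to 221 with 1 mouse left out. The interaction had 1, and 19 with DESeq2, 10 without the filter, 0 with Xist, at 0.05 and without either set of libraries, and 0 to 2 with 1 mouse left out. Where these counts differ, the cause was not tested.

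Same-numbered mice did not deviate together: r was -0.14 to 0.12 in 24 pairs, against -0.23 to 0.19 in 96 other pairs. Such a check cannot exclude a shared litter or batch. With the replicate number as a block, 98, 1, 1, 1 and 12 genes were called in the 5 comparisons in the order above, and 0 of the 10.

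Without the haemoglobin libraries the median of the 10 genes moved to -0.076 in zQ175:CK2a'(+/-) against CK2a'(+/-) and to -0.018 in the interaction. Some signs turned, all of differences that had not passed. Without the choroid plexus libraries, zQ175 against WT became 0.082 for Pecam1, 0.062 for Kdr and 0.27 for Slco1a4, zQ175:CK2a'(+/-) against WT became 0.14 for Pecam1 and 0.36 for Slco1a4, and zQ175:CK2a'(+/-) against zQ175 became 0.054 for Pecam1 and -0.090 for Kdr. Without the haemoglobin libraries, Tek was at -0.0038 in zQ175 against WT, Slco1a4 at 0.0046 in zQ175:CK2a'(+/-) against WT, Pecam1 at 0.055 in zQ175:CK2a'(+/-) against zQ175, Kdr at -0.18 in CK2a'(+/-) against WT, and Tek at 0.055 and Vtn at 0.0086 in zQ175:CK2a'(+/-) against CK2a'(+/-). With Xist, Slco1a4 was at 0.033 in zQ175:CK2a'(+/-) against WT. With 1 mouse left out, zQ175 against WT went from -0.19 to 0.12 for Pecam1, -0.37 to 0.041 for Kdr, -0.10 to 0.14 for Tek and -0.27 to 0.12 for Slco1a4. zQ175:CK2a'(+/-) against WT went from -0.23 to 0.10 for Pecam1, -0.22 to 0.011 for Kdr, -0.078 to 0.16 for Tek, -0.23 to 0.15 for Slco1a4 and -0.020 to 0.14 for Abcb1a. zQ175:CK2a'(+/-) against zQ175 went from -0.15 to 0.081 for Pecam1, -0.14 to 0.29 for Kdr, -0.076 to 0.062 for Tek and -0.070 to 0.11 for Slco1a4, and Pdgfrb went from -0.026 to 0.17 in zQ175:CK2a'(+/-) against CK2a'(+/-). At 34 to 192 reads per library, Cldn5 and Kdr set the widest intervals.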
